A study of Homo sapiens with 12 samples.

Results

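Of the 28278 gene symbols counted in these transcriptomes, 9 are described here: *PAX8*, *WT1*, *SOX17*, *EMX2*, *MECOM* and *ESR1*, which encode transcription factors, and *MSLN*, *FOLR1* and *WFDC2*, which encode cell surface or secreted proteins. They were chosen by name as identity genes of ovarian and Mullerian epithelium, and all 9 had a row in the count table. Bulk polyA RNA-seq was performed on cells labelled OVCAR3, which come from a high-grade serous carcinoma of the ovary, and CCL218, a colorectal line that the study traces to HT29. HCQ-evolved cells had received 15 pulses of hydroxychloroquine (HCQ), each of 48 h and followed by recovery, and were at passage 15. Control cells were passaged without HCQ on a paired plate and were at passage 19. All cells grew in drug-free medium before harvest. Wells were pooled by their place on the plate, and the sample labels name the pools L, M and R. These letters are read here as plate positions, which the labels do not state. Each of the 4 groups thus had 3 pools, and the 12 libraries held 31.1 to 60 M counts. The 3 pools of a group came from a single plate, so the p-values measure the spread between parts of a plate. Passage number and HCQ exposure cannot be told apart, and in bulk RNA neither can a smaller share of expressing cells and less RNA per cell.

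The Mullerian duct forms the oviduct, uterus and upper vagina, and high-grade serous ovarian carcinoma resembles the secretory epithelium of the oviduct. *PAX8*, *SOX17* and *EMX2* are developmental regulators of this tract, *WT1* marks serous carcinoma and mesothelium, and *ESR1* is the estrogen receptor that many of these tumors express. Mesothelin (*MSLN*), folate receptor alpha (*FOLR1*) and the secreted WAP domain protein HE4 (*WFDC2*) are used as tumor markers or as targets of antibody therapy.

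The libraries labelled OVCAR3 and CCL218 shared most of the epithelial and colorectal markers examined by presence, although levels of several colorectal markers differed. All 8 shared epithelial genes (*EPCAM*, *CDH1*, keratins and claudins) were at or above 1 CPM (counts scaled to library size) in every library. Of 16 colorectal markers, 12 reached 1 CPM in all 3 control OVCAR3 pools, 9 in HCQ-evolved OVCAR3, 11 in control CCL218 and 12 in HCQ-evolved CCL218. Their summed level was 1047 to 1248 CPM in control OVCAR3 and 270.3 to 752 CPM in HCQ-evolved OVCAR3. It was 1352 to 1795 CPM in control CCL218 and 1491 to 1593 CPM in HCQ-evolved CCL218. Much of the sum was *LGALS4*, with means of 729.8 and 360.0 CPM in control and HCQ-evolved OVCAR3 and 1046 and 785 CPM in CCL218. Libraries labelled OVCAR3 thus held intestinal transcripts such as *VIL1* (78.5 to 290.1 CPM) and *HNF4A* (19.8 to 90.4 CPM). Among fibroblast markers only *COL1A1* reached 1 CPM in all pools of any group, and among leukocyte markers only *CD14* did. Whether the libraries under both labels come from distinct lines was not tested, and line names used here are the labels. The R pool of HCQ-evolved OVCAR3 stood apart from its group. It had 0.803 CPM of the intestinal factor *CDX2*, against 8.26 and 9.72 CPM in the L and M pools, and 50.1 CPM of *MUC16*, against 21.4 and 21.1 CPM. The control L pools differed from the control M and R pools alike under both labels. They were the highest control pools for *PAX8*, *MSLN*, *FOLR1* and *WFDC2* and the lowest for *MECOM* and *WT1*. More genes were detected in them (18992 in OVCAR3 and 18568 in CCL218) than in any other library. They enter each HCQ comparison, and the cause was not tested.

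**Figure D1:**
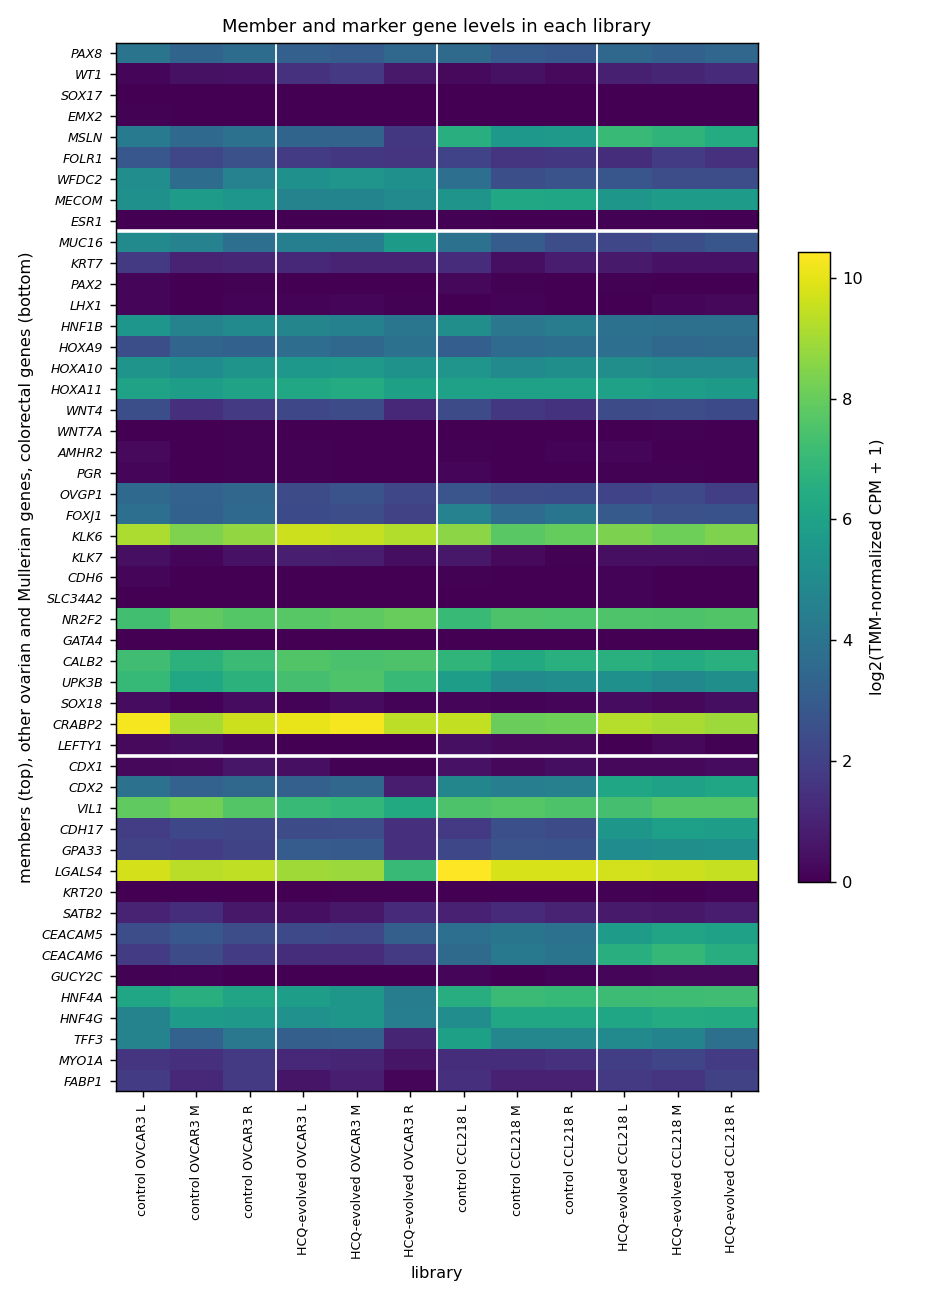
Level of each of the 9 genes (top), 25 other ovarian and Mullerian genes (middle) and 16 colorectal genes (bottom) in each of the 12 libraries, as color on a log2(CPM + 1) scale. *SOX17*, *EMX2* and *ESR1* are dark in every library, while colorectal genes such as *VIL1* and *LGALS4* are bright under both cell line labels.

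The same 5 of the 9 genes were present in all 4 groups. A gene was taken as present at 1 CPM or more in all 3 pools, after scaling by the trimmed mean of M values (TMM). *PAX8*, *MECOM*, *MSLN*, *FOLR1* and *WFDC2* were present in every group, making 5 of 9, whereas 41.2 to 42.1% of all 28278 genes were present in a group. *SOX17*, *EMX2* and *ESR1* were below the floor of detection, set at 3 counts (0.0501 to 0.0942 CPM), in all 12 libraries. *WT1* lay between, above the floor in every library but below 1 CPM in all 6 control pools, and it counted as present in HCQ-evolved OVCAR3 without the R pool and in HCQ-evolved CCL218 without the L pool. The floor covers counting error only.

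Per kilobase of exon, the genes ranked differently under each label. In control OVCAR3 the level was highest for *WFDC2* (17.4 ± 8.24 CPM per kb, SD, n = 3), followed by *MSLN* (5.51 ± 1.47), *MECOM* (4.78 ± 0.865), *FOLR1* (3.08 ± 0.744), *PAX8* (1.63 ± 0.379) and *WT1* (0.0363 ± 0.0206). The pools of *MSLN* and *MECOM* overlapped there, and the other neighbors in this order did not. In control CCL218 the order began with *MSLN* (24.6 ± 10.5 CPM per kb), *MECOM* (6.63 ± 1.96) and *WFDC2* (5.76 ± 3.46). *MECOM* and *WFDC2* overlapped, as did *FOLR1* (1.60 ± 0.416) and *PAX8* (1.13 ± 0.349). After HCQ evolution *WFDC2* still led in OVCAR3 (28.9 ± 2.36 CPM per kb) and *MSLN* in CCL218 (41.5 ± 8.43 CPM per kb).

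The bases upstream of *WT1*, *MECOM* and *WFDC2* are shown because these genes, a low regulator that was higher after evolution in both lines and a pair that differed between evolved lines, carry the comparisons that follow. They are from RefSeq (GRCh38.p14), read on the strand of the gene and ending where GENCODE 44 begins it, at chr11:32435565-32435789 (minus), chr3:169663776-169663962 (minus) and chr20:45469503-45469752 (plus). Capitals mark CCGCCC, the GC box GGGCGG on the opposite strand.
WT1: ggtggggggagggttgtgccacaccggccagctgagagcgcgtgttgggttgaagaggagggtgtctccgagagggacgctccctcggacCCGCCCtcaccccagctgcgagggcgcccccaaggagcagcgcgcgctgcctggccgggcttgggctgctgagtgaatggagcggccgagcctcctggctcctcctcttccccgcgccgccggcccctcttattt
MECOM: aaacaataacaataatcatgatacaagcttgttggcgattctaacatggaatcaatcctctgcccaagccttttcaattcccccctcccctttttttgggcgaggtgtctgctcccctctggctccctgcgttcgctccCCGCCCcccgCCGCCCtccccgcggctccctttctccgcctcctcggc
WFDC2: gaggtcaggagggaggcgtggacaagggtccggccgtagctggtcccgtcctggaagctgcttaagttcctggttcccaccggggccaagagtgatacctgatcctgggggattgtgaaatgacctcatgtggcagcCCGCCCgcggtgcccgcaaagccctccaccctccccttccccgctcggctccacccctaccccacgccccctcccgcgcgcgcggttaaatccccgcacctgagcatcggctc
In the full 250 bases before the RefSeq start, *WT1* and *WFDC2* each had 19 CpG dinucleotides and 1 GC box, and *MECOM* had 14 and 2. The median of 27305 promoters was 11 CpG, and 42.3% held a GC box on either strand. The *PAX8* window had 11 CpG and no GC box, the *EMX2* window 20 and 2, and the *ESR1* window 3 and none. A TATA box (TATAAA, in 11.1% of promoters) or a caudal-type motif (TTTATNG, in 9.29%) was not in any of these 6 windows on either strand.

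*PAX8* (chromosome 2, 113215997 to 113278921, minus strand, GENCODE 44 on hg38) was present under both labels, with levels that overlapped. The paired box factor it encodes is a routine marker of Mullerian origin. Control OVCAR3 pools were at 14.9 (L), 9.29 (M) and 11.9 (R) CPM, and HCQ-evolved OVCAR3 pools at 8.07, 7.23 and 10.1 CPM. Control CCL218 pools were at 11.2, 7.29 and 6.40 CPM, and HCQ-evolved CCL218 pools at 10.2, 8.40 and 10 CPM. The groups overlapped in every comparison. The log2 fold change, HCQ-evolved over control, was -0.48 (standard error 0.24, adjusted p = 0.391, edgeR) in OVCAR3 and 0.20 (0.23, adjusted p = 0.621) in CCL218. Between control pools of both labels it was 0.53, OVCAR3 over CCL218 (0.24, adjusted p = 0.346). An antisense gene, *PAX8-AS1*, shares 1651 bases, or 22.4% of *PAX8* exon sequence, and had 5.25 to 8.04 times the counts of *PAX8* in each library. The strand setting of the counting is not given in the sources used here, so reads in the shared bases cannot be told apart.

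*WT1* (chromosome 11, 32387775 to 32435564, minus strand) had few counts but was higher in all HCQ-evolved pools of both lines. It encodes a zinc finger factor of the gonad, kidney and mesothelium. In OVCAR3 it had 4, 12 and 22 counts in control pools L, M and R and 102, 122 and 39 counts in HCQ-evolved pools, or 0.103, 0.377 and 0.407 CPM against 1.78, 2.35 and 0.653 CPM. In CCL218 it had 8, 18 and 10 counts against 44, 60 and 83, or 0.197, 0.392 and 0.213 CPM against 0.903, 1.09 and 1.39 CPM. Mean CPM was 5.40 times as high after evolution in OVCAR3 and 4.22 times in CCL218, with no overlap of pools in either line. Of the 12613 genes that passed the filter over all 12 libraries, 6.88% had pools apart and higher in both lines. *WT1* is among these genes only through HCQ-evolved pools, where it is high, so the share is no test of it.

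*WT1* did not reach 1 CPM in 3 libraries of either line and was not tested under the filter of the fit per line. Without a filter its log2 fold change was 2.44 in OVCAR3 (adjusted p = 0.0342, edgeR) and 2.09 in CCL218 (adjusted p = 0.00993), and with a block for plate position, 2.12 in CCL218 (adjusted p = 3.7e-05). In a single fit of all 12 libraries, where *WT1* passed the filter only through HCQ-evolved pools, the values were 2.40 (adjusted p = 0.0204) and 2.06 (adjusted p = 0.0569). The unfiltered OVCAR3 call was lost without the control L pool (adjusted p = 0.231) or the HCQ-evolved M pool (adjusted p = 0.113), and the CCL218 call without the HCQ-evolved R pool (adjusted p = 0.0704). Its antisense partner *WT1-AS*, which shares 47 exon bases, had 0 to 4 counts.

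*SOX17*, *EMX2* and *ESR1* were not detected above the floor in any group, including the libraries labelled ovarian. *SOX17* (chromosome 8, 54457935 to 54460892, plus strand), an HMG-box regulator that acts with PAX8 in ovarian cancer cells, had 0 counts in all 12 libraries. *EMX2* (chromosome 10, 117542445 to 117549546, plus strand), a homeobox regulator of the urogenital tract, had 2 counts in the control OVCAR3 L pool and 0 in the others. *ESR1* (chromosome 6, 151656691 to 152129619, plus strand) had 2 counts in each of 4 libraries, namely HCQ-evolved OVCAR3 R, control CCL218 L and HCQ-evolved CCL218 L and M, and 0 in the others. A change with HCQ was thus not detectable at this depth for these 3 genes. The paralogs *SOX7* and *SOX18* stayed below 1 CPM (up to 0.491 and 0.301 CPM), as did *EMX1* (up to 0.902 CPM) and the second estrogen receptor, *ESR2* (up to 0.664 CPM). *PGR* and *GREB1*, targets of the estrogen receptor, reached at most 0.148 and 0.221 CPM.

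*MECOM* (chromosome 3, 169083499 to 169663775, minus strand) was the most counted of the transcription factors. It encodes a zinc finger regulator, also known as EVI1, whose region is often amplified in serous ovarian carcinoma. OVCAR3 pools were at 36.7, 52.7 and 43.5 CPM in controls and 24.4, 24.8 and 31 CPM after evolution. CCL218 pools were at 40.9, 75.4 and 68.0 CPM in controls and 44.3, 51.9 and 52.5 CPM after evolution. All HCQ-evolved OVCAR3 pools were below all control pools, while CCL218 pools overlapped. The log2 fold change was -0.71 in OVCAR3 (standard error 0.22, adjusted p = 0.158) and -0.31 in CCL218 (0.23, adjusted p = 0.422), and neither passed the test. DESeq2, which on simulated data recovered more changed genes than edgeR but made more false calls, called the OVCAR3 difference (-0.72, adjusted p = 0.0327). Between HCQ-evolved pools, *MECOM* was 1.85-fold higher in CCL218 than in OVCAR3 (log2 fold change, OVCAR3 over CCL218, -0.89, standard error 0.23, adjusted p = 0.0247). This call was lost without OVCAR3 L or M (adjusted p = 0.0956 and 0.0914) or CCL218 M or R (0.0932 and 0.091). Between controls the value was -0.47 (0.23, adjusted p = 0.369).

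**Figure D2:**
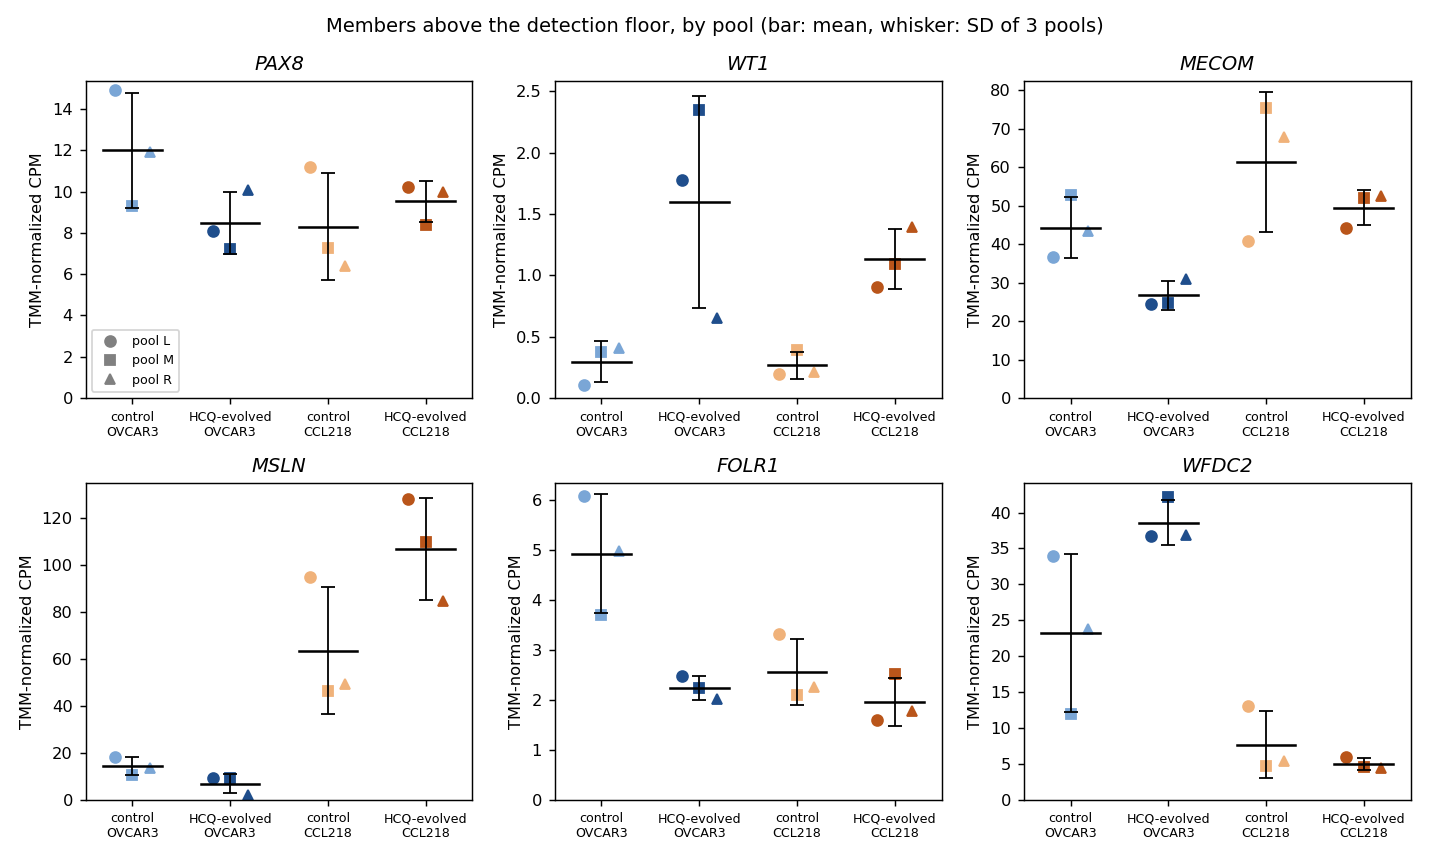
TMM-normalized CPM (vertical axis, linear and from 0) of the 6 genes above the floor in each pool of the 4 groups, with pools L, M and R as circles, squares and triangles, horizontal bars for the mean and whiskers for the SD of 3 pools. *MSLN* is highest in HCQ-evolved CCL218 (84.7 to 128 CPM), *WFDC2* in HCQ-evolved OVCAR3 (36.7 to 42.2 CPM), and *WT1* is higher in HCQ-evolved than in control pools of both lines.

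*MSLN* (chromosome 16, 760734 to 768865, plus strand) was higher in libraries labelled colorectal than in those labelled ovarian. Mesothelin is a surface glycoprotein of mesothelium and several carcinomas that binds MUC16. OVCAR3 pools were at 18.3, 10.7 and 13.7 CPM in controls and 9.31, 9.07 and 2.21 CPM after evolution. CCL218 pools were at 94.9, 46.4 and 49.5 CPM in controls and 128, 109.7 and 84.7 CPM after evolution. No CCL218 pool overlapped an OVCAR3 pool, a separation that 17.8% of genes tested had between controls and 37.4% between evolved pools. *MSLN* was 4.46-fold higher in control CCL218 than in control OVCAR3 (log2 fold change, OVCAR3 over CCL218, -2.16, standard error 0.48, adjusted p = 0.03) and 15.7-fold higher in the evolved pools (-3.97, standard error 0.51, adjusted p = 0.000567). Of 18 alternatives to the control comparison, 8 that left out a pool lost the call (adjusted p = 0.0501 to 0.14), namely each of the 6 control pools and HCQ-evolved CCL218 L and M.

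The HCQ comparison of *MSLN* had opposite signs under the labels and did not pass the test in either. In OVCAR3 all evolved pools were lower (log2 fold change -1.04, standard error 0.50, adjusted p = 0.361), and the R pool that stood apart was the lowest. Without this pool the value was -0.62 (adjusted p = 0.199). In CCL218 the pools overlapped and the value was 0.75 (standard error 0.30, adjusted p = 0.181). With plate position as a block it was 0.81 and passed (adjusted p = 0.0167), and without the control L pool, the highest control, it was 1.15 (adjusted p = 0.000629). Of 12 colorectal markers tested in CCL218, 5 rose (*CDX2*, *CDH17*, *GPA33*, *CEACAM5* and *CEACAM6*), where 3.82% of all genes did, and 0 fell. The other 7 did not pass, among them *LGALS4* (-0.42 on the log2 scale) and *TFF3* (-0.76). In OVCAR3 edgeR called 0 of 12, with 4 at an unadjusted p under 0.05, against 1983 of all 12204 genes tested. There 1.86% of all genes were called, so a list of this length could show 0 at that rate. The median log2 fold change of the 12 in OVCAR3 was -0.86, and 3 of them were positive. *CDX2* was at 23.2 CPM in control and 67.8 CPM in HCQ-evolved CCL218 (adjusted p = 0.00275). The part of these markers in the *MSLN* values was not tested.

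*FOLR1* (chromosome 11, 72189558 to 72196323, plus strand) was at 1.60 to 6.09 CPM in the 12 libraries. It encodes the receptor that brings folate into cells by endocytosis. OVCAR3 pools were at 6.09, 3.71 and 4.99 CPM in controls and 2.48, 2.24 and 2.01 CPM after evolution, with no overlap. CCL218 pools overlapped, at 3.32, 2.09 and 2.26 CPM against 1.60, 2.51 and 1.77 CPM. The log2 fold change was -1.12 in OVCAR3 (standard error 0.26, adjusted p = 0.0799) and -0.38 in CCL218 (0.28, adjusted p = 0.42). The OVCAR3 difference passed in the single fit of all 12 libraries (-1.14, adjusted p = 0.0223). It also passed with DESeq2 (-1.13, adjusted p = 0.00282), the tool with more false calls on simulated data. Control OVCAR3 pools were above control CCL218 pools (0.95, standard error 0.27, adjusted p = 0.0909), and evolved pools overlapped (0.19, 0.27, adjusted p = 0.647).

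Of 14 other folate genes, 12 were tested and edgeR called 0 for HCQ in either line. At an unadjusted p under 0.05 there were 5 in OVCAR3, against 1983 of all 12204 genes tested. In CCL218 there were 2, against 3084 of 12241. Over all genes tested, 1.86% were called in OVCAR3 and 6.46% in CCL218, so a list of this length could show 0 at those rates. The paralogs *FOLR2* and *FOLR3* had at most 2 counts. The reduced folate carrier *SLC19A1* was at 57.3 and 60 CPM in control and HCQ-evolved OVCAR3, and at 44.8 and 41.0 CPM in CCL218. Between evolved lines 5 of 12 tested were called, against 13.1% of all genes. These included *SLC19A1*, *SHMT1* and *FPGS*, which were higher in OVCAR3, and *SLC46A1*, a folate transporter that was higher in CCL218.

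*WFDC2* (chromosome 20, 45469753 to 45481532, plus strand) was higher in HCQ-evolved pools labelled ovarian than in those labelled colorectal. Its product HE4 is a serum marker of ovarian cancer. OVCAR3 pools were at 33.9, 11.9 and 23.8 CPM in controls and 36.7, 42.2 and 36.9 CPM after evolution. CCL218 pools were at 13.0, 4.66 and 5.42 CPM in controls and 5.93, 4.59 and 4.48 CPM after evolution. Control pools overlapped between labels, since the OVCAR3 M pool was below the CCL218 L pool, and evolved pools did not. The evolved level was 7.72-fold higher in OVCAR3 (2.95 on the log2 scale, standard error 0.43, adjusted p = 0.00125). In controls the log2 fold change was 1.60 (0.41, adjusted p = 0.0637), and with plate position as a block it passed (1.63, adjusted p = 0.0232), as it did without the control OVCAR3 M pool (1.92, adjusted p = 0.0234) or the control CCL218 L pool (2.21, adjusted p = 0.00826). With HCQ evolution it was 0.76 in OVCAR3 (0.34, adjusted p = 0.333), with all evolved pools above controls, and -0.62 in CCL218 (0.39, adjusted p = 0.356), with overlap. The CCL218 value rested on the control L pool and was -0.02 without it (adjusted p = 0.944).

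Of the 9 genes, 5 passed the filter of each fit per line, and none of these was called for HCQ evolution, whereas *WT1* was called in both lines when no filter was used. Of 5 tested in OVCAR3, 0 were called by edgeR at an adjusted p under 0.05, where 1.86% of all genes tested were called. At an unadjusted p under 0.05 there were 2 (*FOLR1* and *MECOM*), against 1983 of all 12204 genes tested. DESeq2 called the same 2. The median log2 fold change of the 5 was -0.71, against 0.02 over all genes, and 4 of the 5 had pools apart, against 25.7% of all genes. Of 5 tested in CCL218, 0 were called by edgeR and 0 by DESeq2, where edgeR called 6.46% of all genes. At an unadjusted p under 0.05 there was 1 (*MSLN*), against 3084 of all 12241 genes tested, so this count is near the share over all genes. The median of the 5 was -0.31, against -0.02, and 0 of the 5 had pools apart, against 36%. Without the control CCL218 L pool, 3 were called, namely *PAX8* (0.47, adjusted p = 0.0397), *MSLN* (1.15, adjusted p = 0.000629) and *MECOM* (-0.54, adjusted p = 0.00485). The share of all genes called is not given here for DESeq2 or for fits without a pool. Counts from those fits thus cannot be set against it. Between controls of both labels, 1 of 6 tested was called (*MSLN*), against 3.42% of all genes. The 6 include *WT1*, which entered the fit of all libraries only through HCQ-evolved pools and was below 1 CPM in every control pool. Between evolved pools 3 of 6 were called (*MSLN*, *WFDC2* and *MECOM*), against 13.1%. Without the HCQ-evolved OVCAR3 R pool, 0 of 5 were called for HCQ in OVCAR3 and 3 of 6 between evolved pools, and the unfiltered *WT1* value in OVCAR3 was 2.80 (adjusted p = 6.67e-09). For the difference in HCQ response between lines, 0 of 6 were called by edgeR or DESeq2, against 0.872% of all genes. An unadjusted p under 0.05 was found for 2 (*MSLN* and *WFDC2*), and for 1149 of all 12613 genes tested.

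**Figure D3:**
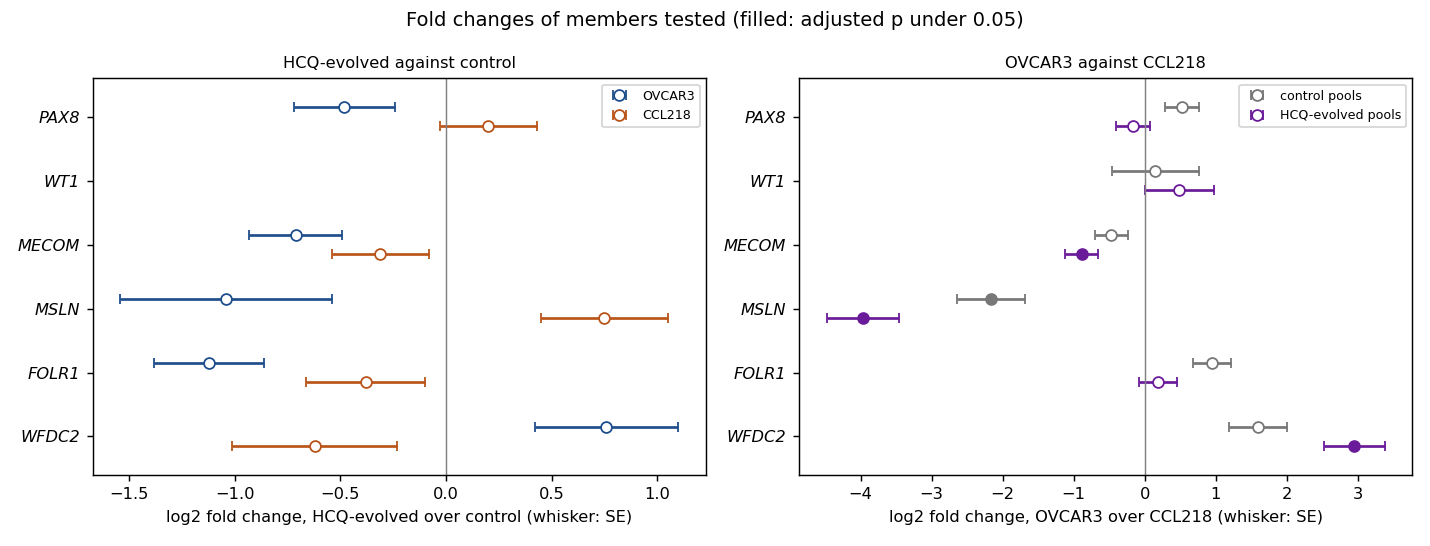
Log2 fold change (horizontal axis, whiskers for the standard error) of the genes tested, HCQ-evolved over control in each line on the left and OVCAR3 over CCL218 in control and in HCQ-evolved pools on the right. On the left, where *WT1* was not tested, all symbols are open because no adjusted p was under 0.05. On the right *MSLN* is filled in both comparisons and *WFDC2* and *MECOM* in evolved pools.

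Other ovarian and Mullerian genes were in part present under both labels. Of 25, 14 reached 1 CPM in all pools of either OVCAR3 group and 13 in either CCL218 group, and 13 did so in all 12 libraries. *HOXA11*, a patterning factor of the Mullerian duct, was at 61.0 CPM in control OVCAR3 and 61.7 CPM in control CCL218. *NR2F2* and *CRABP2* were also well above 1 CPM in all groups, while *PAX2*, *LHX1*, *WNT7A*, *AMHR2*, *CDH6*, *SLC34A2* and *GATA4* stayed at or below 0.206 CPM. Of this list, 1 of 14 tested was called for HCQ in OVCAR3 and 1 of 13 in CCL218, against 1.86% and 6.46% of all genes, so the CCL218 count is near the share over all genes. *FOXJ1*, the master regulator of motile cilia in oviduct epithelium, fell under both labels. Its mean was 10.8 CPM in control and 3.89 CPM in HCQ-evolved OVCAR3 (log2 difference -1.46, adjusted p = 0.0364), and 16.9 and 5.64 CPM in CCL218 (-1.59, adjusted p = 0.0245). All 3 evolved pools were below all control pools in both lines, as in 6.61% of genes tested.

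Between labels, 2 of 14 genes tested of this list were called in controls and 4 of 14 in evolved pools. Over all genes tested, 3.42% and 13.1% were called. The called genes of the list were all higher in OVCAR3. They were *OVGP1* (oviductal glycoprotein) and *UPK3B* (a uroplakin of mesothelium) in controls, and *UPK3B*, *MUC16*, *KLK6* and *CALB2* in evolved pools. *UPK3B* was at 100.3 CPM in control OVCAR3 and 40.0 CPM in control CCL218 (difference of 1.33 on the log2 scale, standard error 0.27, adjusted p = 0.0188), and at 161 and 33.1 CPM in evolved pools (2.29, 0.27, adjusted p = 0.000348). *MUC16*, whose product binds mesothelin, was at 30.9 and 4.77 CPM in evolved pools (2.69, standard error 0.50, adjusted p = 0.00457), the reverse of the order of *MSLN*.

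Patterns over the 12 libraries were compared by Pearson's r of log2 CPM with 12612 other genes, as a description over pools that share groups and depth. *WFDC2* was most like *ANXA1* (0.990), *UPK3B* (0.987) and *PITX1* (0.983). *MSLN* was most like *KIAA1211L* (0.982), *LANCL3* (0.979) and *SGSH* (0.979). *MECOM* was most like *DHX57* (0.969), *BTD* (0.969) and *ATXN7L3B* (0.962). The nearest gene to *FOLR1* was *EIF2A* (0.952), followed by *OVGP1* (0.949) and *OLA1* (0.944). *WT1* was nearest to *ANKZF1* (0.940), *IGIP* (0.930) and *CEPT1* (0.929), and *PAX8* to *VMAC* (0.930), *SAYSD1* (0.893) and *TPT1-AS1* (0.868).

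**Figure D4:**
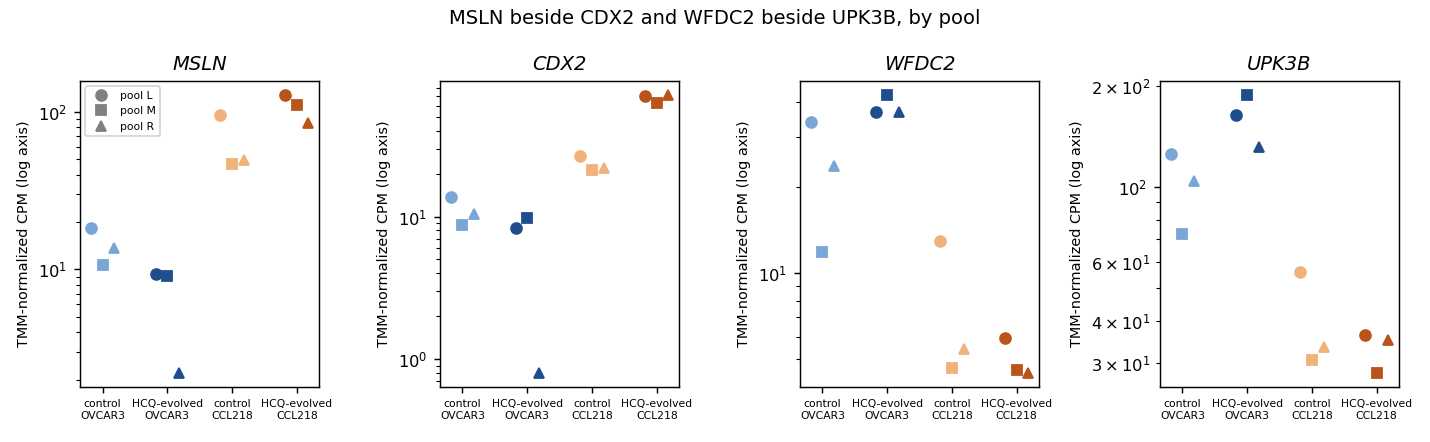
TMM-normalized CPM (log axes) by pool of *MSLN* beside *CDX2*, and of *WFDC2* beside *UPK3B*, in the 4 groups, with pools L, M and R as circles, squares and triangles. The R pool of HCQ-evolved OVCAR3 is the lowest for *MSLN* (2.21 CPM) and *CDX2* (0.803 CPM), and the OVCAR3 pools of *UPK3B* are above its CCL218 pools in both conditions.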

How the data were processed

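Bulk polyA RNA-seq of 12 pools of OVCAR3 and CCL218 cells was analysed from the counts per gene that the authors deposited. Reads had been aligned to hg38 with STAR, duplicates removed with RmDup, and reads counted with featureCounts. Versions, annotation and strand setting are not given in the sources used here. All columns were matched to a sample, and 0 were left over. Removal of duplicates can lower the counts of abundant genes, and counting by symbol can merge genes that share a symbol.

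Libraries held 31.1 to 60 M counts and were scaled by TMM. Genes reaching 1 CPM in 3 or more libraries of a fit (12204 in OVCAR3, 12241 in CCL218) entered a quasi-likelihood test (edgeR 4.0.16, R 4.3.3, robust and legacy settings). P-values were adjusted by Benjamini-Hochberg over all genes tested, and calls were made under 0.05. Each line was fitted alone for HCQ-evolved against control. Comparisons between labels and the interaction came from a single fit of all 12 libraries (12613 genes). Printed CPM are TMM-normalized over all 12 libraries, and log2 CPM used a prior count of 2. Coordinates and exon lengths came from GENCODE 44 on hg38 (25763 of 28278 symbols, 91.1%, and all 9 genes described), and promoters from RefSeq, without those of *MSLN*, *FOLR1* and *SOX17*.

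The 9 genes and the marker and pathway lists were chosen with earlier results of these data known. All 9 are named. Of the lists, the genes to name were those at 1 CPM or more in all libraries or called in any comparison and the paralogs and antisense partners, and for pattern likeness the 3 genes with the highest r. Not all genes that met this rule are printed. *PAX2*, *LHX1*, *WNT7A*, *AMHR2*, *CDH6*, *SLC34A2*, *GATA4*, *PGR* and *GREB1* were added to the named genes once their values were known.

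Plate position (L, M, R) could pair the pools. After removal of group means, pools at one position correlated across 12613 genes at 0.506, 0.233 and 0.195 between control and HCQ-evolved CCL218 and at 0.846, 0.804 and 0.237 between controls of both labels, all above 0.1, so the blocked value is printed where it changes a call. In OVCAR3 (0.401, -0.665 and -0.478) and between HCQ-evolved pools (0.509, -0.119 and 0.514) position did not pair the pools. In a test on simulated data with 200 genes changed by a log2 fold of 1.5, edgeR recovered 149 with 6 false calls in OVCAR3 (12095 genes) and 187 with 13 in CCL218 (12142 genes), and DESeq2 recovered 182 with 55 and 193 with 56. DESeq2 1.42.0 and the other alternatives are described with the closing results. A result on a gene of the folate list is not reported here.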

Additional observations from a re-analysis of the deposited data

Results flagged for a closer look

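For *MSLN*, *PAX8* and *WFDC2*, all 3 HCQ-evolved pools lay on one side of the control mean in one line and on the opposite side in the other. The HCQ response of CCL218 minus that of OVCAR3, on the log2 scale, was 1.81 for *MSLN* (unadjusted p = 0.0178, adjusted p = 0.335, edgeR interaction over all genes), 0.70 for *PAX8* (0.0661, adjusted p = 0.612) and -1.35 for *WFDC2* (0.0379, adjusted p = 0.48), and none passed the threshold. For *WFDC2* the control CCL218 mean was raised by the L pool (13.0 CPM, against 4.66 and 5.42 CPM), the other control pools lay among the evolved ones (4.48 to 5.93 CPM), and without the L pool the difference was -0.74 (adjusted p = 0.628). Colorectal markers differed in the same contrast, with 3 of 13 called (*CDH17*, *CEACAM5* and *CEACAM6*), against 0.872% of all genes, and their part in these differences was not tested. Groups of 3 pools are too small for a test of single outlying pools.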

How the results depend on the processing

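Of 455 log2 fold changes recomputed under alternatives, 7 reversed, none of them past the threshold. Counts of called genes among the 9 moved as follows, and the share of all genes called under each alternative is not given here. In OVCAR3 the count of 0 became 2 with DESeq2 (*FOLR1* and *MECOM*), 1 without the filter (*WT1*), 2 in a single fit of all libraries (*FOLR1*, and *WT1*, which passed that filter only through the HCQ-evolved pools where it is high) and 1 once each library was corrected for transcript length and GC content (*MECOM*, below called the trend removed). In CCL218 the count of 0 became 1 without the filter (*WT1*), 1 with the replicate block for plate position (*MSLN*) and 1 with the trend removed (*MSLN*, 0.97, adjusted p = 0.0068), and ranged from 0 to 3 with a pool left out. For the difference between lines it became 1 with the trend removed (*MSLN*, 1.88, adjusted p = 0.0371). Between controls the count of 1 became 3 with DESeq2 and 2 without the filter, with the replicate block or with the trend removed, and ranged from 0 to 3 with a pool left out. Between evolved pools it stayed at 3, or 2 to 3 with a pool left out. In *WT1* the difference between lines ranged from -0.71 to 0.06 and the value between controls from -0.20 to 0.55 with a pool left out. *FOLR1* between evolved pools went from 0.19 to -0.15 with the trend removed. The causes were not tested. The replicate block changed no call other than those of *MSLN* in CCL218 and *WFDC2* between controls. Presence was 5 of 9 per group, or 6 with *WT1* in both HCQ-evolved groups at 0.5 CPM, without HCQ-evolved OVCAR3 R or without HCQ-evolved CCL218 L. The trend removal and the unfiltered fits of *WT1* with a pool left out or a block were chosen after seeing the data. Depth limits *SOX17*, *EMX2*, *ESR1* and *WT1*.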

Other observations

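Most genes listed as partners or targets of the estrogen receptor were expressed although *ESR1* was below the floor. Of 20, 17 reached 1 CPM in all pools of 3 groups and 16 in HCQ-evolved OVCAR3, where 41.2 to 42.1% of all genes did so in a group. *ESR2*, *PGR* and *GREB1* stayed below 1 CPM in every library (up to 0.664, 0.148 and 0.221 CPM). Activity of the receptor was not tested. With HCQ, 1 of 17 tested fell in each line and 0 rose, against 1.86% of all genes called in OVCAR3 and 6.46% in CCL218, so the CCL218 count is near the share over all genes. In OVCAR3 this was *CCND1* (cyclin D1), at 179.6 CPM in controls and 83.7 CPM after evolution (-1.08 on the log2 scale, standard error 0.19, adjusted p = 0.038), and in CCL218 it was *FOXA1*, a pioneer factor, at 189.6 and 129 CPM (-0.56, 0.11, adjusted p = 0.0308). The response of *CCND1* differed between lines (1.28, CCL218 minus OVCAR3, standard error 0.21, adjusted p = 0.0178).

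A list of 18 held paralogs and antisense partners of the 9 genes and also *MUC16*, whose product binds mesothelin. Of these, 17 were in the table and 3 were tested (*PAX8-AS1*, *SLPI* and *MUC16*). *SLPI*, a secreted WAP domain protease inhibitor related to *WFDC2*, was likewise higher in OVCAR3, at 16.0 CPM in control OVCAR3 and 0.732 CPM in control CCL218 (4.46 on the log2 scale, standard error 0.42, adjusted p = 0.000267), and at 9.70 and 1.53 CPM in evolved pools (2.67, 0.38, adjusted p = 0.000986). The related *WFDC1* and *WFDC3* stayed at or below 0.0983 and 0.344 CPM. *PAX5* reached at most 1 CPM and *PRDM16*, a paralog of *MECOM*, 0.18 CPM.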
